A study of Bos taurus with 20 samples.

Results

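The genes described here are 6 channel-forming genes of the bovine ovarian follicle, the gap junction connexins GJA1, GJA4, GJA5, GJB2 and GJC1 and the pannexin PANX1. They were taken by symbol from the gene names of a custom bovine Agilent array and are 6 of the 22550 genes or transcripts measured on it, with 14 of its 61325 non-control spots. Gene expression was measured on 20 arrays, each hybridized with Cy3-labelled RNA of cells from antral follicles of 3 to 6 mm, collected from bovine ovaries after slaughter. There were 4 arrays each of theca cells (TH), scraped from the follicular wall, granulosa cells (GC), immature cumulus cells (CC), immature oocytes (OO) and cumulus cells after 4 h of in vitro maturation (CC-IVM). The CC-IVM cells matured as part of whole cumulus-oocyte complexes and were detached afterwards, whereas all other groups were uncultured. The age of the animals and the number of animals or oocytes behind an array were not given in the sources used here.

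Connexins assemble into channels that join the cytoplasm of neighbouring cells and let ions, cyclic nucleotides, amino acids and other small molecules pass. In the follicle, granulosa and cumulus cells are coupled to each other by such channels, and cumulus cells reach the oocyte through projections that cross the zona pellucida and end in gap junctions on the oocyte membrane. In rodents GJA1 is the main connexin among granulosa cells and GJA4 that of the oocyte surface, and the coupling is lost during maturation. Pannexins belong to a separate family and form mainly single-membrane channels that release ATP.

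Every gene was read by a pair of different 60-base probes, each spotted once, or in duplicate for PANX1. In UMD 3.1 coordinates, as given in the array annotation, the transcripts of the members lie at chr9:30127786-30140793 (GJA1), chr3:111481702-111482589 (GJA4), chr3:21983348-21999397 (GJA5), chr12:36335916-36340957 (GJB2), chr19:45154679-45186611 (GJC1) and chr29:590732-644582 (PANX1). GJA4 and GJA5 share chromosome 3. GJA4 probe 2, GJB2 probe 1 and both probes of PANX1 are shown because the results of these genes differ between their probes. Each is written 5′ to 3′ as spotted, with capitals for an in-frame stop codon, which was found at the end of PANX1 probe 1.
GJA4 probe 2: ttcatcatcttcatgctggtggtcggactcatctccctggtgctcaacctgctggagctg
GJB2 probe 1: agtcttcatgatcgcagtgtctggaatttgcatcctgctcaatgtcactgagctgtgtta
PANX1 probe 1: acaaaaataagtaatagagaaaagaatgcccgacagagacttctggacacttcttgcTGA
PANX1 probe 2: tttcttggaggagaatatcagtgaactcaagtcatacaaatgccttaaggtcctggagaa
GJA4 probe 2 is free of stop codons in each forward frame, GJB2 probe 1 in 1 of the 3 frames and PANX1 probe 2 in 2 of them. The GC content was 55.0% for GJA4 probe 2, 45.0% for GJB2 probe 1, and 38.3% and 40.0% for PANX1 probes 1 and 2.

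A gene expression value is given below as log2 of the processed signal relative to the 75th percentile of its array, so that 0 is the level of that percentile, and the value of a gene is the median over its spots. Since probes differ in brightness, values were compared between samples for one gene and never between genes. The marker sums below add the linear signals of different genes, so that genes with bright probes weigh most in them. A spot was either well above background or not, as marked by the scanner software, and 54.2 to 68.8% of probes were well above it on all arrays except OO replicate 2, on which 49.3% were. On OO replicate 2 the dimmest signal well above background was at -4.02, against -6.84 to -5.91 on the other OO arrays. The 75th percentile of the processed signal was 1521 to 2891 on the OO arrays, highest on OO replicate 2, and 284 to 1101 on the arrays of the other groups. The labels were checked against marker genes fixed in lists. Theca markers (5 of 5 on the array) had a summed linear signal of 421 to 668 in TH and at most 99.7 in any other group. The 6 granulosa and cumulus markers summed to 211 to 573 in GC, 506 to 541 in CC and 756 to 872 in CC-IVM. Between CC-IVM and CC, 1 of them was called higher after IVM and 3 lower. INHBA rose by 1.07 (limma, adjusted p 0.0011), while FSHR, CYP19A1 and AMH changed by -1.25, -1.26 and -1.04 (adjusted p 0.028, 0.032 and 0.018). In TH the 6 markers summed to 91.5 to 116, with 5 of the 6 well above background on at least 3 arrays. One of them, VIM, had means of 6.32 in TH, 6.80 in GC and 6.92 in CC, and so adds to the sum in TH. The authors grouped VIM with genes higher in all somatic cell types than in the oocyte. In OO the 6 markers summed to 3.06 to 3.88. The 6 oocyte markers summed to 248 to 330 in OO against at most 3.01 elsewhere. Of 6 listed maturation genes, 4 were found on the array. HAS2, AREG and EREG take part in expansion of the cumulus matrix and in its trigger. After IVM their measured differences were 7.76, 6.11 and 5.14 (limma, adjusted p 3.3e-06, 9.8e-06 and 6.1e-05). AREG and EREG were not above background in CC, so the size of their rise is not measured. PTX3 differed by -0.11 (adjusted p 0.86).

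All 6 members differed among TH, GC, CC and OO in the limma F-test across all genes, where 71.3% of all genes did so. In OO, GJA4, GJB2, GJC1 and PANX1 were higher than the somatic mean (TH, GC and CC averaged), and GJA1 and GJA5 were lower. In this contrast 32.9% of all genes were called higher and 38.3% lower (7425 and 8645 genes, or 5416 and 15127 after normexp background correction). For tests of single probes, 64.4% of all probes passed in this contrast, 22.5% between TH and GC, 27.6% between TH and CC, 8.15% between GC and CC, and 45.8% between CC-IVM and CC. The 6 genes also passed the test in OO against TH, against GC and against CC, in which 64.6, 68.6 and 63.7% of all genes passed. Calls were lost for PANX1 after normexp (GC minus OO -0.07, adjusted p 0.73, and CC minus OO -0.25, adjusted p 0.21) and for GJA5 within slide 1 (CC minus OO 1.27, adjusted p 0.13). In bulk RNA of a group, fewer cells of a type and less RNA per cell cannot be told apart.

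GJA1 (connexin Cx43) was far lower in OO than in the somatic cells. Its values were 5.10, 5.08, 5.07 and 5.08 on the TH arrays, 6.74, 6.00, 6.30 and 6.89 on the GC arrays and 6.53, 6.36, 6.38 and 6.34 on the CC arrays. The OO arrays gave -1.12, -0.66, -0.48 and -0.76. Every OO array thus lay below every somatic array, and every TH array below every GC and CC array, while the ranges of GC and CC overlapped.
The difference between OO and the somatic mean was -6.74 ± 0.16 (SE, adjusted p 9.6e-15), and CC exceeded OO by 7.16, a 143-fold difference (adjusted p 9.9e-14). TH was lower than GC by 1.40 and lower than CC by 1.32 on the log2 scale, or 2.64-fold and 2.50-fold (adjusted p 5.0e-05 and 5.8e-05). GC and CC differed by 0.08, with a 95% interval of -0.33 to 0.49 (adjusted p 0.84). The order was therefore GC and CC, then TH, then OO, with GC and CC not separated beyond their spread. The probes were alike, with -6.79 for probe 1 and -6.70 for probe 2 in OO against the somatic mean, and within slide 1 alone the difference between TH and GC was -1.28 (adjusted p 0.065). GJA1 was well above background on the 4 OO arrays, where the granulosa and cumulus markers summed to 3.06 to 3.88. Of these markers, AMH, INHBA, SERPINE2 and VIM were well above background on all 4 OO arrays and FSHR on 2. CYP19A1, the aromatase of granulosa cells, was on none of the 4 well above background. The part of granulosa and cumulus RNA in the GJA1 signal of OO was not tested.

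**Figure D1:**
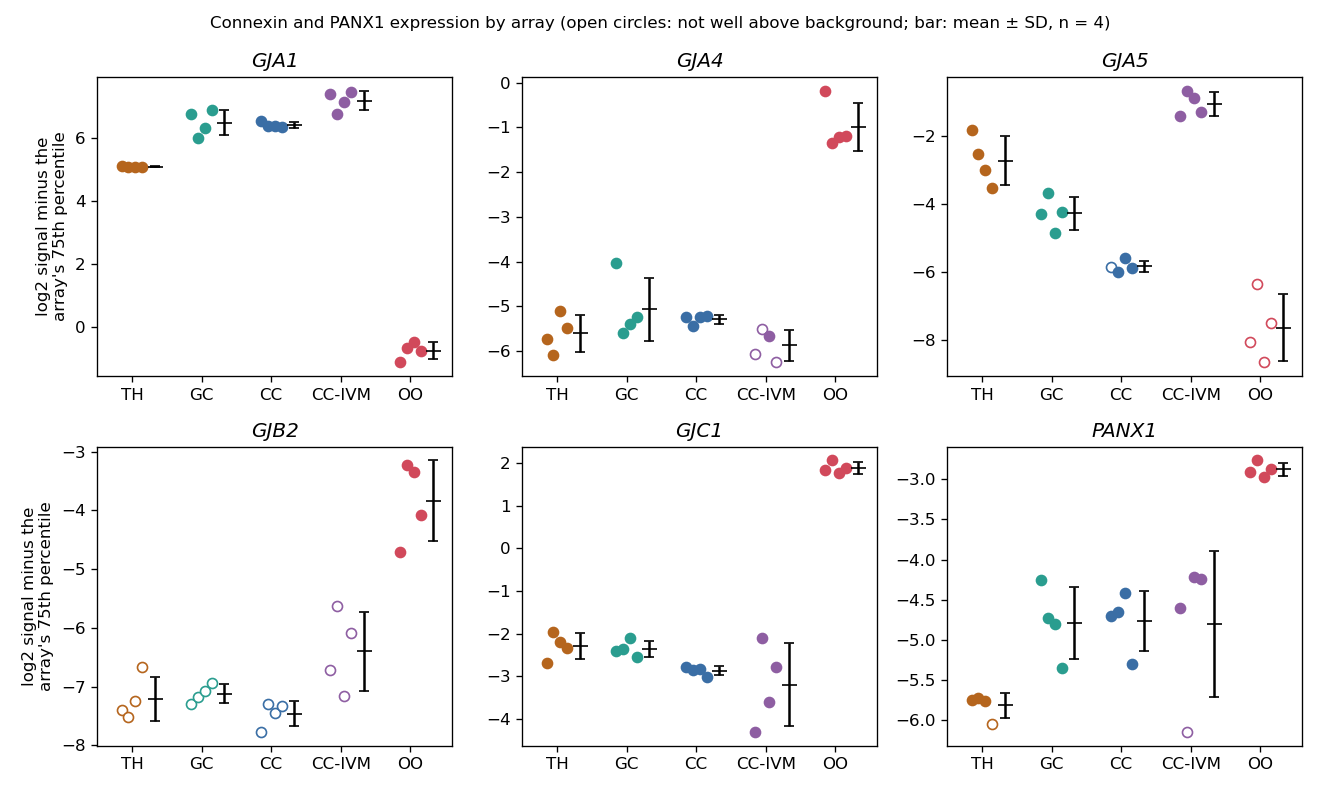
Gene expression values of the 6 members on each of the 20 arrays, by group, as log2 signal minus the array's 75th percentile. Filled circles were well above background for at least 1 probe, open circles for none, and black bars give the mean ± SD (n = 4). OO values of GJA1 lie between -1.12 and -0.48, below all other groups, whereas those of GJC1 lie between 1.76 and 2.07, above all other groups.

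GJA4 (Cx37), the connexin placed at the oocyte surface in rodents, was highest in OO, at -0.18, -1.36, -1.21 and -1.19. It read -5.72, -6.09, -5.11 and -5.49 in TH, -4.03, -5.59, -5.39 and -5.24 in GC, and -5.23, -5.44, -5.24 and -5.22 in CC. No OO array overlapped with a somatic array, and the 3 somatic groups overlapped with one another.
OO was higher than the somatic mean by 4.33 ± 0.27 (SE, adjusted p 6.5e-10). The size depended on the processing, with 1.85 after normexp background correction and 3.00 in the deposited table (limma, adjusted p 2.3e-08 and 1.1e-12). Among somatic cells no pair passed the test, with differences of -0.54 (TH minus GC, interval -1.25 to 0.17), -0.32 (TH minus CC, -1.02 to 0.39) and 0.22 (GC minus CC, -0.49 to 0.93).
The gene value is the midpoint of probes that gave different pictures in somatic cells. Probe 1 was well above background on the 4 OO arrays (-0.61, -1.50, -1.60 and -1.54) and on none of the other 16, so that OO was at least 15.7-fold above TH, at least 12.9-fold above GC and at least 17.2-fold above CC (adjusted p 1.2e-08, 2.5e-08 and 3.7e-09). These bounds set the mean of OO against, on each array of the dim group, the lowest signal well above background or the signal of the probe itself, whichever was higher. Probe 2 was well above background on all TH, GC, CC and OO arrays, at -4.31 ± 0.47, -3.55 ± 0.43, -3.06 ± 0.36 and -0.66 ± 0.63 (SD, n = 4). With this probe OO exceeded the somatic mean by 2.98 ± 0.27 (SE, adjusted p 9.0e-08), and TH was lower than CC by 1.25 on the log2 scale (adjusted p 0.010).
Both probes thus placed OO highest. Probe 1 gives no order among somatic cells, since it was not well above background on any TH, GC or CC array. The summed oocyte markers were 0.56 to 3.01 in CC against 0.37 to 0.67 in TH and 0.18 to 0.40 in GC, and the part of oocyte RNA in the probe 2 signal of CC was not tested.

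GJC1 (Cx45), a connexin of low-conductance channels known from the heart and vessel wall, was well above background on all 20 arrays and highest in OO, at 1.83, 2.07, 1.76 and 1.90. The TH arrays read -2.70, -1.97, -2.20 and -2.34, the GC arrays -2.40, -2.37, -2.11 and -2.55, and the CC arrays -2.79, -2.85, -2.84 and -3.03. The 4 OO arrays were close together and far above the 12 somatic arrays.
OO exceeded the somatic mean by 4.40 ± 0.14 (SE, adjusted p 1.6e-13), or 21.1-fold. Both probes were alike, with 4.47 and 4.34. TH exceeded CC by 0.57 (adjusted p 0.014), a small difference that did not pass within slide 1 (0.49, adjusted p 0.40), within slide 2 (0.66, adjusted p 0.11), with the array median as the scale (0.45, adjusted p 0.092) or with probe 1 alone (0.42, adjusted p 0.14). TH and GC differed by 0.05 (interval -0.30 to 0.41) and GC and CC by 0.52 (interval 0.17 to 0.87, adjusted p 0.062), so that the neighbours in the order OO, TH, GC, CC were separated only at its first step.

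GJB2 (Cx26), best known from the cochlea and from secretory epithelia, was well above background in OO and in no other group. Its gene values in OO were -4.71, -3.23, -3.35 and -4.08, while those of TH, GC and CC lay between -7.77 and -6.67 with no array above background. The OO signal came from 1 probe. Probe 1 gave -0.52, -0.13, -0.05 and -0.08 in OO and -7.63 to -6.84 in the somatic groups. This placed OO at least 34.2-fold above TH, at least 28.6-fold above GC and at least 37.2-fold above CC (adjusted p 6.6e-14, 9.6e-14 and 5.4e-14).
Probe 2 read -8.89, -6.32, -6.65 and -8.08 in OO and was well above background on OO replicate 3 only. Its difference from the somatic mean was -0.15 (adjusted p 0.73). With both probes combined the measured difference was 3.42 ± 0.23 (SE, adjusted p 1.9e-09), and the bounds became at least 2.73-fold, 2.29-fold and 2.97-fold over TH, GC and CC. No order can be given among TH, GC and CC, since all were below background.

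PANX1 was higher in OO than in the somatic cells. It read -2.91, -2.76, -2.97 and -2.87 in OO, -5.74, -5.72, -5.76 and -6.04 in TH, -4.26, -4.73, -4.80 and -5.35 in GC, and -4.70, -4.65, -4.41 and -5.30 in CC. OO did not overlap with the somatic arrays, TH lay below all GC and CC arrays, and GC and CC overlapped.
OO exceeded the somatic mean by 2.24 ± 0.18 (SE, adjusted p 1.5e-08), with 2.56 for probe 1 and 2.01 for probe 2. TH was lower than GC by 1.03 and lower than CC by 1.05 on the log2 scale (adjusted p 0.0025 and 0.0017), while GC and CC differed by -0.02 (interval -0.49 to 0.46). The signal of probe 1 was near background in somatic cells. Probe 1 was well above it on 0 TH, 1 GC and 0 CC arrays, which placed OO at least 3.00-fold above TH and at least 3.27-fold above CC (adjusted p 7.2e-07 and 7.4e-06). With this probe alone the measured difference was -0.90 for TH minus GC (adjusted p 0.064) and -0.58 for TH minus CC (adjusted p 0.24). Probe 2 was well above background on 3 TH, 4 GC and 4 CC arrays. With probe 2 alone these differences were -1.17 (adjusted p 0.0059) and -1.53 (adjusted p 5.5e-04). After normexp background correction, OO minus the somatic mean was 0.29 (adjusted p 0.078), TH minus GC -0.49 (adjusted p 0.076) and TH minus CC -0.30 (adjusted p 0.33). Within slide 2 the latter differences were -0.82 (adjusted p 0.21) and -1.04 (adjusted p 0.094).

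GJA5 (Cx40), a connexin of arterial endothelium and cardiac conduction tissue, fell from TH to GC to CC and was not above background in OO. The gene values were -1.83, -2.54, -2.99 and -3.53 in TH, -4.30, -3.68, -4.86 and -4.24 in GC, -5.86, -6.00, -5.60 and -5.90 in CC, and -8.05, -6.35, -8.66 and -7.52 in OO. No neighbouring groups in this order overlapped.
TH exceeded GC by 1.55 ± 0.44 (SE, adjusted p 0.015), GC exceeded CC by 1.57 ± 0.44 (adjusted p 0.033), and TH exceeded CC by 3.11 ± 0.44 (adjusted p 4.1e-05). The pattern rested on probe 1, which read 1.47, 0.67, 0.61 and -0.31 in TH, -1.67, -1.58, -2.46 and -1.43 in GC, and -5.68, -4.44, -3.56 and -4.20 in CC. With that probe TH exceeded GC by 2.40 and GC exceeded CC by 2.68 (adjusted p 0.0078 and 0.010), and TH was at least 91.3-fold, GC at least 17.3-fold and CC at least 2.70-fold above OO. With both probes combined these bounds were 9.05-fold, 3.1-fold and 1.05-fold. Without OO replicate 2, the OO array with the lowest share of probes above background, the bounds of probe 1 became 141-fold, 26.8-fold and 4.17-fold.
Probe 2 was well above background on TH replicate 1 and on no other TH, GC, CC or OO array. The steps between neighbours depended on single arrays. TH minus GC was 1.25 (adjusted p 0.056) without TH replicate 1 and 1.35 (adjusted p 0.050) without GC replicate 3, and GC minus CC lost its call without GC replicate 1, 2 or 4 or without any 1 of the CC replicates (1.37 to 1.65, adjusted p 0.053 to 0.10). Within slide 1 and slide 2, TH minus GC was 1.80 and 1.29 (adjusted p 0.13 and 0.12) and GC minus CC was 1.94 and 1.19 (adjusted p 0.23 and 0.31), and with the array median as the scale GC minus CC was 1.49 (adjusted p 0.053).
The 8 endothelial markers followed the same order as GJA5 over the somatic groups, with summed signals of 6.66 to 12.9 in TH, 0.70 to 1.41 in GC and 0.27 to 0.50 in CC, but not in OO, where they summed to 3.04 to 4.57. The OO sum came mostly from TEK and VWF, with means of 1.33 and -0.59, while the other markers had means between -8.05 and -4.11. Of the 8, KDR, TEK, CLDN5 and ESAM were well above background on all GC and CC arrays, and VWF on 4 GC arrays and 1 CC array. PECAM1 and TIE1 were so on 2 GC arrays each and on no CC array. CDH5, the cadherin of endothelial junctions, was so on 1 TH array and on no GC or CC array. The 9 smooth muscle and pericyte markers summed to 218 to 247 in TH, 9.28 to 25.3 in GC, 3.39 to 5.11 in CC and 8.81 to 13.7 in OO. That OO sum came mostly from CNN1, with a mean of 3.40. ACTA2 had a mean of 0.08 in OO and the other markers had means between -8.12 and -4.95. The part of endothelial, smooth muscle and pericyte RNA in the GJA5 signal was not tested.

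**Figure D2:**
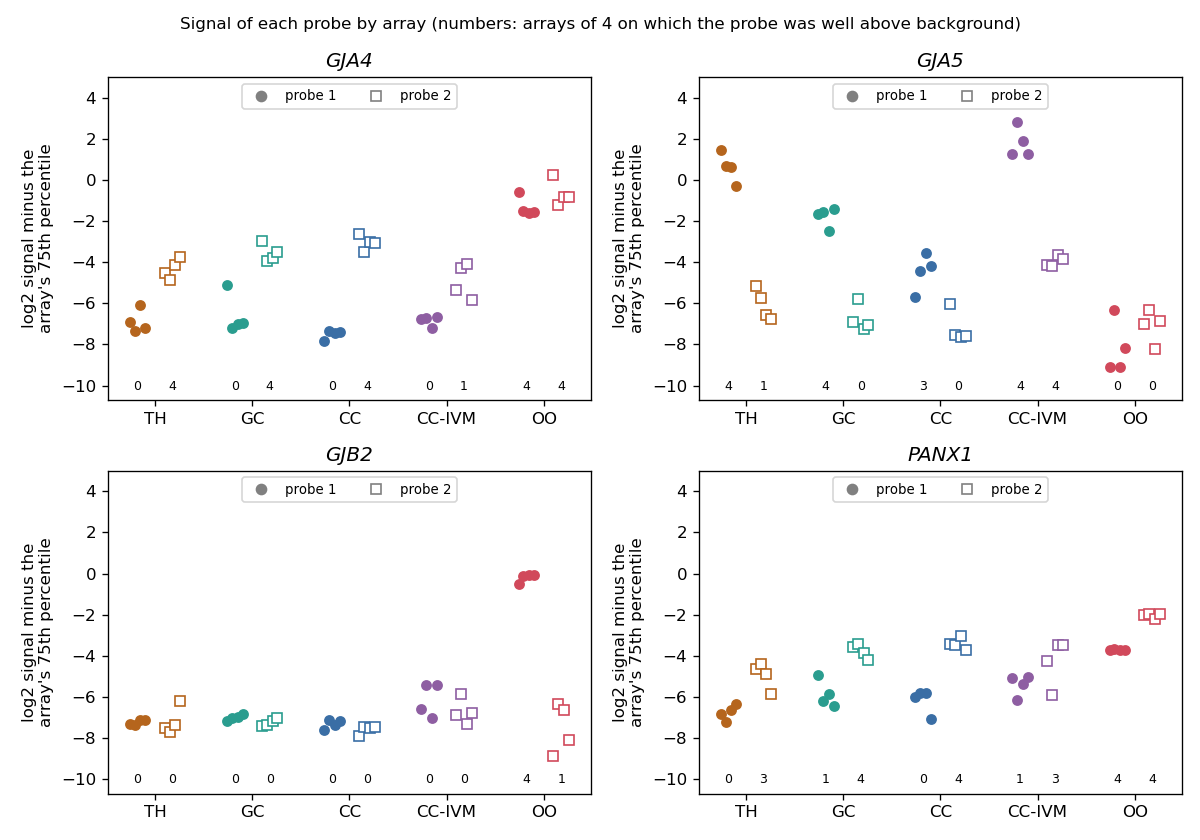
Values of both probes of GJA4, GJA5, GJB2 and PANX1 on each array, as log2 signal minus the array's 75th percentile, with filled circles for probe 1 and open squares for probe 2. The number under each set is how many of its 4 arrays were well above background. GJB2 probe 1 stands near 0 in OO while probe 2 stays at the level of the other groups, and GJA5 probe 2 is well above background on all arrays of CC-IVM only.

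Over the 6 members, 3 differed between TH and GC (GJA1, GJA5 and PANX1) where 26.3% of all genes did, and 4 between TH and CC (these and GJC1) where 31.8% did. GC and CC differed in GJA5 alone, against 9.88% of all genes. Within slide 1 and within slide 2, with only 2 arrays a group, 1 member passed between TH and GC in each, PANX1 in slide 1 and GJA1 in slide 2, and GJA5 did not pass between GC and CC in either. Across the leave-one-out fits, all 6 members kept their call in OO against the somatic mean. Without OO replicate 2 these differences were -6.78 for GJA1, 4.46 for GJA4, -3.80 for GJA5, 3.22 for GJB2, 4.34 for GJC1 and 2.21 for PANX1.

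**Figure D3:**
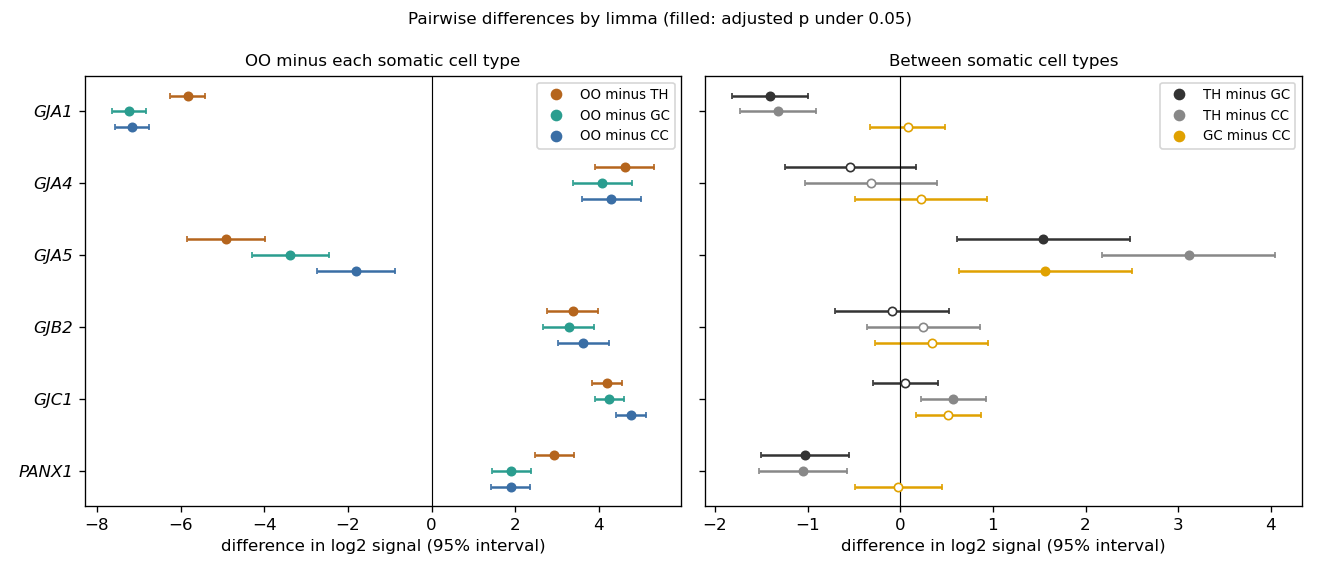
Differences in log2 signal between groups with 95% intervals (limma), for OO minus each somatic cell type on the left and between somatic cell types on the right. Filled circles passed an adjusted p of 0.05 and open circles did not. GJA1 and GJA5 lie to the left of 0 in OO and the other 4 members to the right, whereas among somatic cells TH is lower than GC and CC for GJA1 and PANX1 and higher for GJA5.

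In cumulus cells, 4 of the 6 members passed the test between CC-IVM and CC, where 45.8% of all genes did, 30.3% higher and 15.5% lower after IVM (6824 and 3505 genes, or 2754 and 3623 after quantile normalization and 14714 and 2954 after normexp). The count of members was 2 after quantile normalization, in the deposited table, and without CC replicate 1, CC replicate 3 or CC-IVM replicate 4. The median of all genes was 0.37 higher after IVM in this scale and 0.01 higher after quantile normalization. All CC-IVM arrays were on a slide of their own, so that the effect of IVM and that of the slide cannot be told apart.
GJA5 had the largest change of the members. It read -1.41, -0.67, -0.87 and -1.29 in CC-IVM against -6.00 to -5.60 in CC, with no overlap, a rise of 4.78 ± 0.22 (SE, adjusted p 2.3e-06), or 4.41 beyond the median of all genes. Both probes rose. Probe 1 went from -4.47 ± 0.89 to 1.81 ± 0.73 (SD, n = 4), an increase of 6.29 (adjusted p 6.1e-05). Probe 2, below background in CC, read -4.11, -4.16, -3.63 and -3.85 after IVM, which is at least 2.78-fold higher (adjusted p 3.4e-04). Across the alternatives and left-out arrays at gene level, the rise was between 2.84 and 6.29 with an adjusted p of at most 7.7e-05.
Endothelial markers summed to 0.37 to 0.77 in CC-IVM against 0.27 to 0.50 in CC. KDR, CLDN5 and ESAM were well above background on all CC-IVM arrays, VWF on 3, and PECAM1 and TEK on 1 each. CDH5 and TIE1 were not well above background on any CC-IVM array. Of the 8 markers, 3 were called higher (KDR, VWF and CDH5) and 2 lower. KDR and VWF rose by 1.90 and 1.72 (adjusted p 0.0045 and 0.0039), and TEK and CLDN5 fell by 1.72 and 1.25 on the log2 scale (adjusted p 0.013 and 0.011). Smooth muscle and pericyte markers summed to 2.95 to 4.76 in CC-IVM and to 3.39 to 5.11 in CC. The 6 blood markers summed to 30.3 to 46.3 in CC-IVM and 24.99 to 47.97 in CC, and 4 of them were called higher. The macrophage markers CD68 and CD14, well above background on all arrays of both groups, rose by 2.15 and 2.33 (adjusted p 0.0019 and 0.043). HBB was well above background on 2 CC-IVM arrays and no CC array, and PTPRC, the leukocyte marker CD45, on none. The part of these cells in the GJA5 rise was not tested.

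GJA1 read 7.39, 6.76, 7.13 and 7.44 after IVM, above the 6.34 to 6.53 of CC with no overlap, an increase of 0.78 ± 0.20 (SE, adjusted p 0.015), or 0.41 beyond the median of all genes. The increase was 0.18 after quantile normalization (adjusted p 0.52) and 0.32 in the deposited log2 table (adjusted p 0.12).
For GJA4, no direction after IVM can be given. The gene value was lower by 0.58 on the log2 scale (adjusted p 0.048), with -6.05, -5.50, -5.66 and -6.25 in CC-IVM, but its probes moved in opposite directions. Probe 1, at 0.66, was below background in both groups, and probe 2 decreased by 1.82 (adjusted p 0.0097) and was well above background on 4 CC arrays and 1 CC-IVM array. The call at gene level was lost without any 1 of the CC replicates or of CC-IVM replicates 1 and 4 (-0.63 to -0.45, adjusted p 0.071 to 0.12), and the sign changed after normexp correction (0.22, adjusted p 0.089). Beside it, the 6 oocyte markers summed to 0.16 to 0.56 in CC-IVM against 0.56 to 3.01 in CC, and 4 of them were called lower after IVM. ZP4 and ZP2, which encode proteins of the oocyte coat, changed by -3.44 and -3.17 on the log2 scale (adjusted p 0.015 and 0.018). Their part in the probe 2 signal was not tested.

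GJB2 passed the test as well (1.06, adjusted p 0.026), but neither probe was well above background on any CC or CC-IVM array, so no change in expression can be read from it. GJC1 read -4.31, -2.10, -3.61 and -2.78 after IVM, a spread of 0.97 (SD, n = 4) against 0.11 in CC, and differed by -0.32 with an interval of -1.25 to 0.60. PANX1 read -4.61, -6.15, -4.22 and -4.24 and differed by -0.04 with an interval of -0.97 to 0.90. After normexp correction PANX1 was called higher after IVM (0.42, adjusted p 0.0054).

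**Figure D4:**
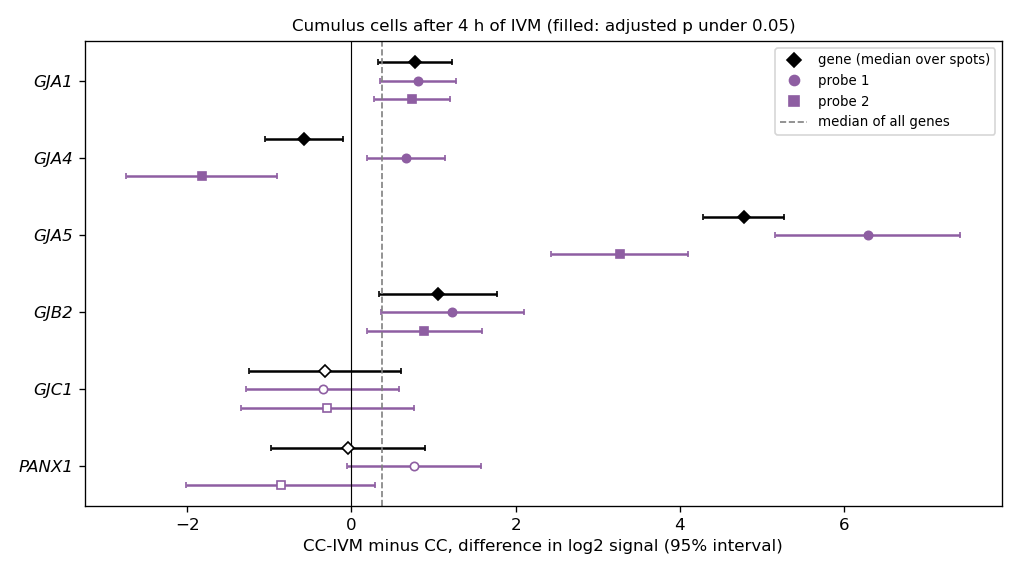
CC-IVM minus CC in log2 signal with 95% intervals (limma), for the gene value (black diamonds) and each probe (purple circle, probe 1; purple square, probe 2). Filled symbols passed an adjusted p of 0.05, and the dashed line is the median of all genes (0.37). Both GJA5 probes lie far to its right, at 6.29 and 3.27, while the GJA4 probes lie on opposite sides of 0.

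The rest of the family was followed by a list of 15 other connexins and pannexins, of which 12 were found on the array by symbol. In OO, 2 were called higher and 5 lower than in the somatic mean, against 32.9% and 38.3% of all genes, with a median of -0.63 against -0.52 for all genes, and 6 of the 12 were well above background on at least 3 arrays of a group. GJD2 (Cx36), the connexin of electrical synapses, was above background only in OO, on 3 arrays, with a measured difference of 2.16 ± 0.19 (SE, adjusted p 4.2e-08). GJB6 was called lower in OO by a measured difference of -1.10 (adjusted p 0.022), with 1 TH array and no GC, CC or OO array well above background. PANX3 was called higher by 1.05 (adjusted p 1.6e-06), with 2 OO arrays and no somatic array well above it.
After IVM, 5 of the 12 were called higher and 1 lower, against 30.3% and 15.5% of all genes, with a median of 0.51 against 0.37 for all genes. None of the 5 called higher was well above background on at least 3 arrays of CC or CC-IVM. PANX2 fell by 1.87 on the log2 scale (adjusted p 7.7e-04) and was well above background on 4 CC arrays and 1 CC-IVM array. GJA10 was called higher by 1.45 (adjusted p 0.032) with 2 of 4 CC-IVM arrays and no CC array well above background, and GJD4 by 0.97 (adjusted p 0.038) with no array of either group above it.
Between TH and GC 1 of the 12 was called higher and 0 lower in TH, against 26.3% of all genes called in either direction. Between GC and CC, 1 of the 12 was called, lower in GC, against 9.88% of all genes.

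**Figure D5:**
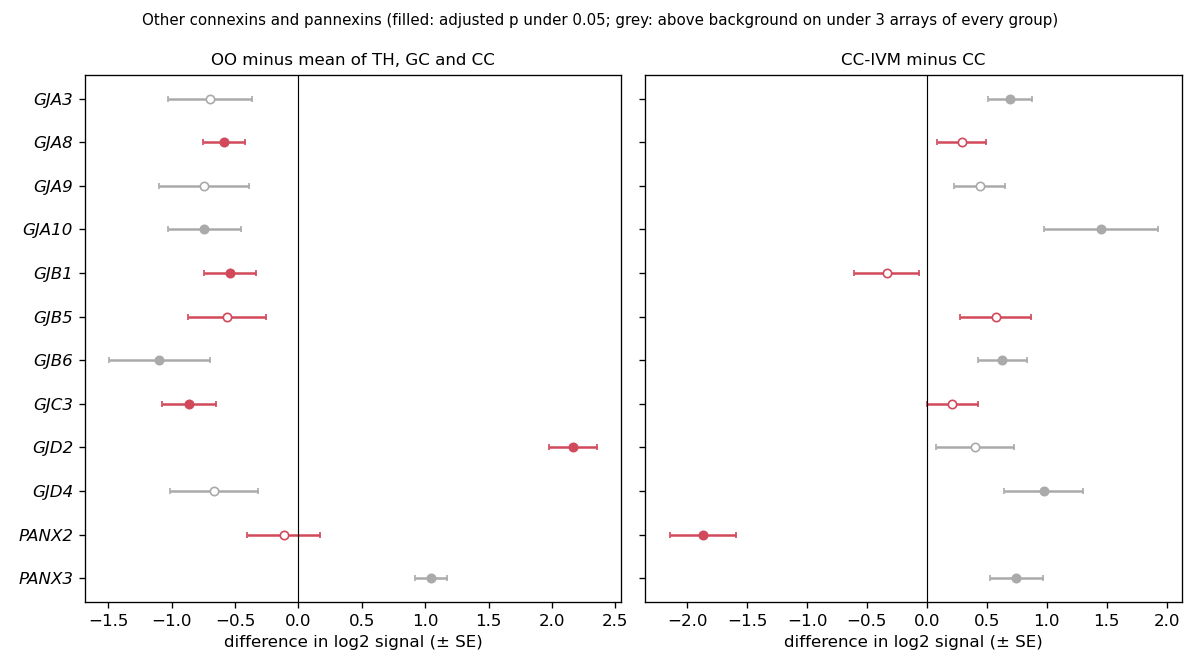
Differences in log2 signal ± SE for the 12 other connexins and pannexins on the array, in OO minus the somatic mean on the left and CC-IVM minus CC on the right. Filled circles passed an adjusted p of 0.05, and grey circles were well above background on under 3 arrays of every group compared. GJD2 lies furthest to the right in OO, at 2.16, and PANX2 furthest to the left after IVM, at -1.87.

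Genes that anchor, phosphorylate or turn over connexins were followed by a list of 22, of which 20 were found by symbol. All 20 passed the test in OO against the somatic mean, 11 higher and 9 lower, against 71.3% of all genes called, 32.9% higher and 38.3% lower. The median was 0.77 against -0.52 for all genes. The cadherin CDH2, which joins the membranes of neighbouring cells, was lower in OO, with a difference of -6.10 (adjusted p 1.3e-12), with levels of 4.67 ± 0.21 in GC, 5.01 ± 0.23 in CC, -0.58 ± 0.51 in TH and -3.07 ± 0.54 in OO (SD, n = 4). GC and CC were thus the groups with the highest values of CDH2 among the 4 cell types, as they were of GJA1. The caveolar protein CAV1 and the matricellular protein NOV (now CCN3), which binds connexins, were at 1.56 ± 0.08 and 0.91 ± 0.70 in TH and were not well above background on any OO array. CAV1 was at -3.88 ± 1.13 in GC and -4.79 ± 0.76 in CC, and NOV at -4.10 ± 1.38 and -3.81 ± 0.20, so both were highest in TH. Their measured differences from the somatic mean were -5.66 and -5.52 (adjusted p 3.0e-08 and 6.3e-08).
After IVM, 7 of the 20 were called higher and 3 lower, near the shares of all genes (30.3% and 15.5%), with a median of 0.13 against 0.37. EZR, which tethers membrane proteins to actin, rose by 2.62 ± 0.21 (adjusted p 2.5e-05), NOV by 1.82 ± 0.23 (adjusted p 2.6e-04) and the ubiquitin ligase NEDD4 by 1.48 ± 0.44 (SE, adjusted p 0.024). NEDD4 was well above background on 2 CC arrays and 3 CC-IVM arrays.

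The genes with the most similar pattern to each member over the 20 arrays were sought among 14361 other named genes by Pearson correlation, as a description, since the arrays fall into 5 groups that share cell type. GJA1 was followed most closely by INHA, MGC139109 and BEX2, with r of 0.99 for each. INHA encodes the inhibin alpha subunit and had mean values of 7.42 in TH, 8.59 in GC, 8.67 in CC, 9.31 in CC-IVM and 0.70 in OO. For GJA4 the nearest were BCL7B, ELAVL2 and DLL3 (r of 0.98 for each), for GJC1 UBLCP1, KLHL7 and SP2 (0.99, 0.98 and 0.98), and for PANX1 SPATA5, ZBTB39 and JADE3 (0.95 for each). GJA5 was nearest to ETS2 (0.97), TMEM200A (0.97) and FAM84B (0.96). TMEM200A had mean values of -4.23 in TH, -4.98 in GC, -6.30 in CC, -2.08 in CC-IVM and -7.80 in OO, the same order as GJA5. GJB2 was nearest to CDH18, IRX2 and PON1 (0.98 for each), whose means were -4.09, -3.32 and -3.87 in OO and between -7.62 and -6.67 in the other groups.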

How the data were processed

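For 20 arrays the authors deposited Agilent Feature Extraction (10.7.3.1) output, with a background-subtracted processed intensity per spot, not normalized between arrays. Their table of log2 values, also deposited, was equal to log2 of the median pixel signal minus the array median (within 5.0e-09). Total RNA (200 ng) had been labelled with Cy3.

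Control spots and spots marked as outliers were dropped. Log2 processed signal was scaled by subtracting each array's 75th percentile, and spots were summarised by their median into 22550 genes or transcripts (UMD 3.1 annotation; 734 of 9779 unnamed probes were named by RefSeq accession). limma 3.58.1 (lmFit, eBayes; R 4.3.3, with version 1.17.8 of data.table) was fitted to the 16 arrays of TH, GC, CC and OO and, separately, to the 8 of CC and CC-IVM. Adjusted p is Benjamini-Hochberg over all genes, or over all 51307 probes for single probes, two-sided, with a threshold of 0.05. The fits were tested on simulated data. Tables and figures used matplotlib 3.10.9, scipy 1.17.1, numpy 2.4.6, pandas 2.3.3 and Python 3.11.15.

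The members and lists were chosen with earlier results of these data known. Some genes of the lists and a probe sequence are not reported here. From both other lists the 3 genes with the largest called change in OO and after IVM were named, and for each member the 3 most correlated genes. Replicates 1 and 2 of TH, GC, CC and OO were on slide 1, replicates 3 and 4 on slide 2, and CC-IVM on slide 3. Deviations from the group means of same-numbered TH and GC arrays correlated in each of 4 pairs (r 0.20 to 0.44 over 9536 genes), which by a threshold of 0.1 in every pair treats these numbers as paired, and the fit with the replicate block changed no call between TH and GC. In no other pair of groups did all 4 pairs pass (13 of 24 pairs among TH, GC, CC and OO, against 19 of 72 with different numbers). The methods call the 4 arrays of each cell type biological replicates without saying whether animals were shared, so p-values measure the spread between these samples, and the number of arrays limits precision. Alternatives were other scalings, normexp (offset 50), the deposited table, other probe summaries, removal of dim genes, 1 fit of all 20 arrays, replicate number or slide as a block, single slides, the methods' analysis of variance, and leaving out each array.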

Additional observations from a re-analysis of the deposited data

Results flagged for a closer look

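Of 30 sets of 4 arrays (6 members in 5 groups), 3 held an array whose distance from the next, as a share of the range of the group, passed Dixon's 95% critical value for 4 samples, which chance passes in about 1 of 20 sets. For GJA4 in CC, replicate 2 was at -5.44 and the others between -5.24 and -5.22 (ratio 0.889). In OO, GJA4 of replicate 1 was at -0.18 and the others between -1.36 and -1.19 (ratio 0.854). For PANX1 in TH, replicate 4 was at -6.04 and the others between -5.76 and -5.72 (ratio 0.880).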

How the results depend on the processing

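All 6 members passed the F-test under every alternative and without any 1 array. In OO against the somatic mean, 5 or 6 members passed. Of 36 called differences of single members, 526 of 544 values with 1 array left out and 435 of 463 under other settings kept direction and call, as did 57 of 72 with 1 probe alone (10 lost the call and 5 changed sign). The count between CC-IVM and CC, 4, became 2 after quantile normalization and 2 in the deposited table, and 2 to 4 without 1 array (2 without CC replicate 1 or 3 or CC-IVM replicate 4). Slide as a term or single slides could not be fitted for IVM. With slide as a random block, added after the data were seen, the count stayed within 1.5 times. That fit cannot separate slide from IVM, since CC and CC-IVM share no slide. Its estimated correlation within slides was -0.26 over the 8 arrays, and it called 15311 of all genes against 10329 in the main fit. Between TH and GC the count, 3, was 1 within slide 1 and 1 within slide 2. Between TH and CC, 4 became 2 with normexp and 2 within slide 2. Between GC and CC, 1 became 0 with the array median, 0 within slide 1 and 0 within slide 2, 2 with the percentile over probes detected on all arrays, 2 with the brightest probe and 2 with the filter on dim genes, and 0 to 2 without 1 array (0 without GC replicate 1 or 2 or any CC replicate, 2 without TH replicate 1 or 2). Where limma called 0 members, the number at an unadjusted p under 0.05 was 2 with the array median, 1 within slide 1 and 2 within slide 2. The causes were not tested.

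Signs changed as follows. For CC-IVM minus CC, normexp gave 0.22 for GJA4 (main -0.58), 0.22 for GJC1 and 0.42 for PANX1, and the deposited table gave 0.083 for PANX1. Without 1 array, GJC1 ranged from -0.69 to 0.048 and PANX1 from -0.23 to 0.41. Probe 1 alone gave 0.66 for GJA4 and 0.77 for PANX1. For TH minus GC, GJA4 was 0.018 within slide 2. GJB2 was 0.19 after quantile normalization, 0.030 with the percentile over detected probes, 0.045 within slide 2, 0.049 with probe 2 and -0.27 to 0.014 without 1 array. GJC1 was -0.0013 after quantile normalization, -0.0021 with the array median, -0.069 with normexp, -0.044 with probe 1 and -0.058 to 0.19 without 1 array. For TH minus CC, GJA4 was 0.62 with probe 1. For GC minus CC, GJA1 was -0.020 after quantile normalization, -0.13 in the deposited table, -0.075 within slide 1 and -0.058 to 0.24 without 1 array. GJA4 was -0.015 after quantile normalization, -0.039 in the deposited table, -0.49 with the brightest probe (probe 2), -0.080 within slide 2 and -0.12 to 0.40 without 1 array. GJB2 was -0.015 after quantile normalization. PANX1 was 0.074 with the percentile over detected probes, 0.18 with normexp, 0.18 within slide 1, 0.32 with probe 1 and -0.20 to 0.17 without 1 array. GJB2 probe 2 gave -0.15 for OO minus the somatic mean, 0.30 for TH minus OO and 0.25 for GC minus OO, and GJA5 probe 2 gave -0.10 for CC minus OO. Apart from GJA4 after IVM and the probe 2 values against OO, these differences were not called in the report. PANX1 after IVM was called with normexp (adjusted p 0.0054).

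With the replicate block, the counts were 6 (F-test), 6 (OO against the somatic mean), 3 (TH and GC), 4 (TH and CC), 1 (GC and CC) and 3 (CC-IVM and CC). The call lost was that of GJA4 after IVM (-0.58, adjusted p 0.11). For CC and CC-IVM, where 0 of 4 same-numbered pairs had a correlation of deviations over 0.1, the number is not a pairing. Low signal limits GJB2 and GJA5 probe 2 in most groups.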
